A study of Mus musculus with 6 samples.

Results

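Interleukin-1 and interleukin-6 carry inflammatory signals between cells, and the 10 genes described here span that route from ligand to feedback inhibitor: Il1b, Il1r1, Il6, Il6ra, Il6st, Osmr, Lifr, Stat3, Socs2 and Socs3. They were chosen by name for their place in these pathways, with earlier results of these data known. All 10 had at least 1 probe and were among the 20907 genes tested. RNA came from the gastrocnemius, a calf muscle, of male mice in 2 groups, young at 13 weeks (3 samples) and old at 25 months (3 samples). The labels give no strain, treatment or genetic change for either age. Total RNA was labelled with the dye Cy3, and 1 single-colour Agilent array was hybridised per sample. The labels number the samples but do not state that they are separate animals, so the p-values reflect the variation among these samples, some of which can be technical.

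As background, interleukin-1β binds the receptor encoded by Il1r1, which signals through the adaptor MyD88 to the transcription factor NF-κB. Cytokines of the interleukin-6 family differ in the receptor chains they bind, and most share the signalling chain gp130, encoded by Il6st. Gp130 activates Janus kinases and the transcription factor STAT3, and STAT3 induces Socs3, whose protein blocks gp130 in turn. Muscle fibres can secrete interleukin-6, and its levels in blood are known to rise with exercise and with inflammation. The study asked how muscle atrophied by aging differs from young muscle in its transcripts.

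A level is given here as a percentage of the 75th percentile of the same array's gene probes, so 100 is that percentile. Levels of different genes come from different probes and are not set against each other. Between 49.9% and 54.8% of gene spots were well above background on each array and none was saturated. Precision is limited by the number of arrays. The negative controls of old replicate 1 averaged 61.3, those of the other arrays 51.9 to 55.1, and its spike-in slope was 0.84, theirs 0.925 to 0.941. It shared a row of the slide with the 3 young arrays, while old replicates 2 and 3 lay in the other row. The tissue label was checked with 9 muscle fibre markers (such as the actin Acta1 and the myosin Myh4). All 9 were well above background on every array and 0 passed the test between the ages. Their log2 differences, old minus young, were all negative, with a median of -0.17 beside -0.06 over all genes. In 2 of them every old array was below every young array, as in 13.9% of all genes.

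One of the 10 genes, Il1b, rose in old muscle, 0 fell, and 9 did not pass limma's test at an adjusted p under 0.05 over all genes. Over all genes 0.254% passed, 0.196% higher and 0.0574% lower. Il1b met the filter of 3 arrays well above background through the 3 old arrays alone, so it entered the test only because it was high there. The values of the ages were separate in 4 of the 10 genes, 2 higher (Il1b, Stat3) and 2 lower (Lifr, Socs2), where 21.8% of all genes were separated (7.93% higher, 13.9% lower). At an unadjusted p under 0.05 there were 3 of the 10, 1 higher and 2 lower, beside 14.4% of all genes (6.06% higher, 8.38% lower). With 3 arrays per age the smallest p of an exact permutation test is 0.1, and single values were not tested in that way. In whole tissue, fewer cells of a type and less RNA per cell cannot be told apart.

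**Figure D1:**
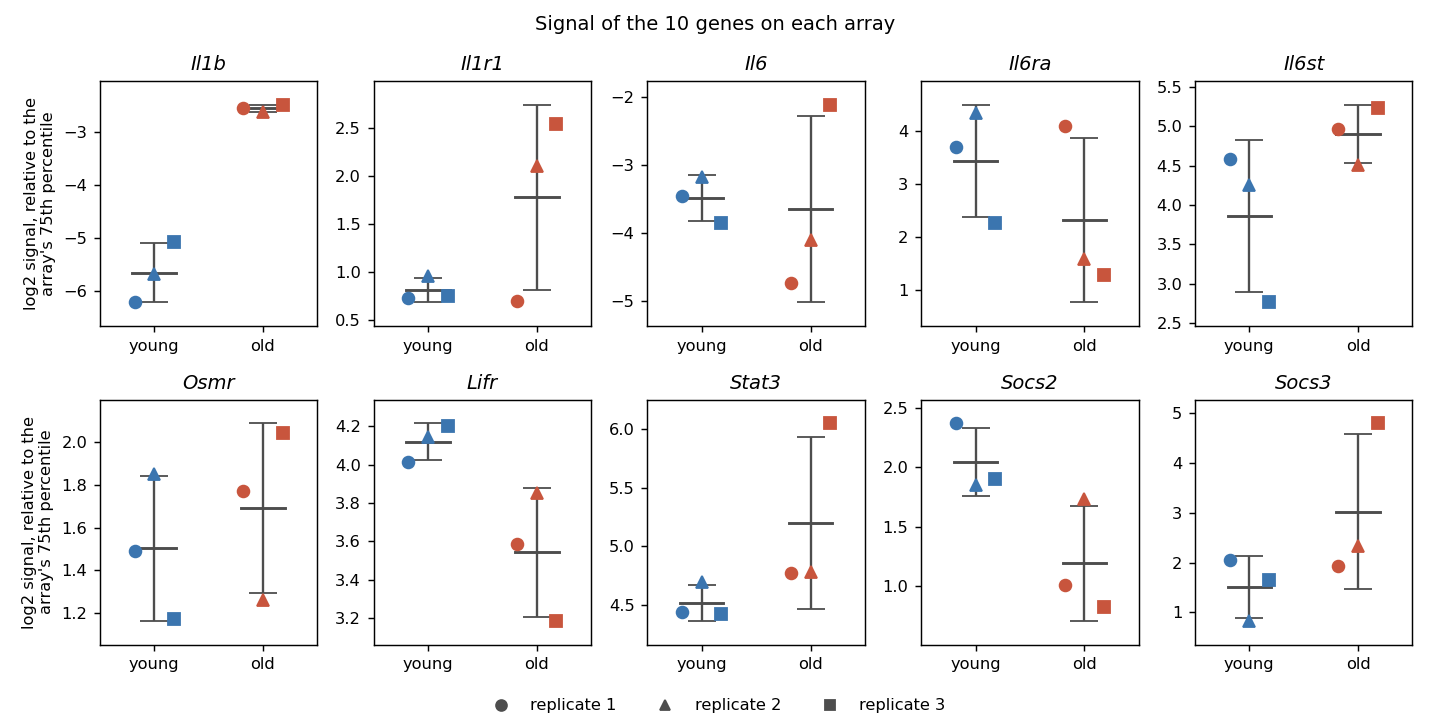
Log2 signal relative to the array's 75th percentile for the 10 genes, with 1 point per array, young in blue and old in red; the horizontal bar is the mean and the error bar is 1 SD over 3 arrays, and each gene has its own vertical scale, which does not start at 0. The old and young points are apart in Il1b, Lifr, Stat3 and Socs2, and old replicate 3 (square) is the highest array in 7 of the 10 genes.

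The ligand Il1b encodes interleukin-1β, which is made as a precursor mainly by macrophages, monocytes and neutrophils and cut by caspase-1. Its probe stood at 16.9, 16.1 and 17.7 on the old arrays and was well above background on all 3. On the young arrays the signal was 1.36, 1.96 and 2.96 and was not well above background on any, so those values have no order. The old values lay close together, with a log2 SD of 0.068, larger than in 5.09% of genes. The probe was printed 10 times on each array, and after outlier spots were left out, 8, 10 and 7 spots on the old arrays were used. The fitted log2 difference was 3.09 ± 0.29 (SE, 3 arrays per age; 95% confidence interval 2.41 to 3.77; limma adjusted p = 0.0214). Young muscle gives only a bound, and set against it the increase is 2.70-fold. The bound takes, on each young array, the dimmest signal flagged as well above background. Measured mean log2 signals were -2.56 in old and -5.65 in young muscle. The bound is not a strict limit, as a brighter signal can go unflagged. Il6 on young replicate 3 did so, with a log2 signal of -3.847 where the dimmest flagged signal was -3.877. The call was lost in 8 of 15 alternatives (adjusted p from 0.0131 to 0.168 over all 15), among them that with no filter on dim probes (0.0793) and 4 that left out an array: young replicate 1 (0.0538), young replicate 2 (0.103), old replicate 2 (0.0869) and old replicate 3 (0.111). With normexp background correction, whose offset compresses dim signals, the log2 difference was 0.60, less than the bound. Its direction was the same in all 15.

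The 250 bases before the start of Il1b are shown because it is the one gene of the 10 that passed the test, with a TATA box in capitals. They are RefSeq's, on the minus strand of chr2:129371140-129371389 in GRCm38.p6, and a longer gene model overlaps them.
Il1b: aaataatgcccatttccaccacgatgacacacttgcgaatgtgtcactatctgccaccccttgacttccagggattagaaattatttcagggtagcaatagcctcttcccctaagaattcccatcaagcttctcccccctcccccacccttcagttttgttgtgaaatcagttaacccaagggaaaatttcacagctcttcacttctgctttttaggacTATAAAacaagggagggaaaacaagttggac
The letters TATAAA, searched on the gene's strand, lay 31 to 26 bases before the start, and 7.59% of 32851 mouse promoter windows of that length held them.

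By the highest Pearson correlation over the 6 arrays, the genes most like Il1b were Nol10 (0.995), Tnfrsf22 (0.993) and Usp20 (0.993), of 13164 genes compared. The 6 arrays hold both ages, and 95 genes reached at least 0.95, so the pattern is not particular to these 3. The young values of Il1b are background, so the order among such genes says nothing of likeness within young muscle. Tnfrsf22, a decoy receptor of the tumour necrosis factor family, itself rose, with a log2 difference of 1.66 (limma adjusted p = 0.0264). Nol10 had 1.01 and Usp20 0.41, and neither passed (adjusted p = 0.103 and 0.281).

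The other ligand, Il6, encodes interleukin-6. Its probe was dim, with levels of 9.16, 11.1 and 6.95 in young and 3.75, 5.83 and 23.2 in old muscle. It was well above background on young replicates 1 and 2 and on old replicate 3, and on no other array. Old replicate 3 was thus the highest of all, and the 3 values that were not well above background (young replicate 3, old replicates 1 and 2) have no order. The fitted log2 difference, which takes those 3 values as measured, was -0.16 ± 0.64, with a 95% interval from -1.68 to 1.36 and a limma adjusted p of 0.921. That interval leaves room for a change of more than 2-fold either way. The sign rested on single arrays, as leaving out old replicates 1, 2 and 3 in turn gave 0.38, 0.06 and -0.93.

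The window before the start of Il6 is shown for its matches to motifs of NF-κB and of AP-1, a factor that stress and inflammatory signals also activate, on the plus strand of chr5:30012864-30013113 in GRCm38.p6, from RefSeq. The capitals mark an AP-1 match and, nearer the start, an NF-κB match.
Il6: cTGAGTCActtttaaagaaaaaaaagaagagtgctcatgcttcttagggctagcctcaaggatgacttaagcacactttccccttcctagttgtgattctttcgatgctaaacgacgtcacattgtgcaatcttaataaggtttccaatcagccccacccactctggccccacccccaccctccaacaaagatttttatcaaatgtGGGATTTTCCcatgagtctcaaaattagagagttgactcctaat
The AP-1 match (TGANTCA, both strands) lay 249 to 243 bases before the start and the NF-κB match (both strands) 44 to 35 bases before it. Such matches were found in 6.75% and 7.25% of all windows of that length. The STAT letters TTCNNNGAA, which read the same on both strands, were in 7.02% of all windows. Among the 11 windows listed for 9 of the 10 genes, that of Socs3 alone held them, as TTCTTAGAA, 154 to 146 bases before its start. A second window of Il1r1 held an NF-κB match. A match is a description of the letters, and no binding was measured.

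Il1r1 encodes the receptor chain that binds interleukin-1. Its levels were 166.5, 194.7 and 168.1 in young and 162.5, 430.3 and 579.6 in old muscle. Old replicates 2 and 3 were above every young array, and old replicate 1 was below all of them. The log2 difference was 0.97 ± 0.45 (95% interval -0.10 to 2.03; limma adjusted p = 0.385). Without old replicate 1 it was 1.51 and passed the threshold (adjusted p = 0.0432; 0.0432 to 0.872 over 16 alternatives). A block for the slide row sets old replicate 1, the one old array that shares a row with young ones, alone against the young arrays. With that block Il1r1 had -0.115. Slide row, and the array that stood apart in its controls, thus move with this result, and their part in it was not tested.

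Il6ra encodes the chain that binds interleukin-6 itself. It varied 4.21-fold among the young and 7.10-fold among the old arrays, with levels of 1296, 2027 and 481.5 in young and 1711, 297.4 and 241.1 in old muscle. Young replicates 1 and 2 and old replicate 1 were high, and young replicate 3 and old replicates 2 and 3 were low, so the groups overlapped. The SD of the log2 values was 1.06 in young and 1.55 in old muscle, larger than in 97.9% and 99.0% of genes. The log2 difference of -1.12 ± 0.84 (95% interval -3.12 to 0.88) did not pass limma's test (adjusted p = 0.566). It was -2.01 without old replicate 1, -0.60 without old replicate 3 and 0.66 with a block for the slide row. A like split of the arrays was present in Cebpd, a transcription factor of the acute phase response, at 13040, 20760 and 2495 in young and 22230, 1808 and 4855 in old muscle. Cebpd was picked out after its values were seen.

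Il6st encodes gp130. Its levels were 2390, 1900 and 679.6 in young and 3131, 2277 and 3771 in old muscle. Old replicates 1 and 3 were above every young array, while old replicate 2 lay between young replicates 2 and 1, and young replicate 3 was the lowest by far. The log2 difference of 1.04 ± 0.48 (95% interval -0.09 to 2.18) did not pass limma's test (adjusted p = 0.381), and it was 0.49 without young replicate 3. Osmr encodes the oncostatin M receptor, a partner of gp130 that fibroblasts and many other cells carry. It stood at 280.6, 360.6 and 225.3 in young and 341.0, 239.5 and 411.9 in old muscle, with the old values spread across the young ones. Its log2 difference was 0.19 ± 0.27 (95% interval -0.45 to 0.83; limma adjusted p = 0.776).

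Lifr encodes the receptor of leukaemia inhibitory factor, another partner of gp130, which also serves ciliary neurotrophic factor and cardiotrophin. Its levels were 1615, 1771 and 1837 in young and 1203, 1445 and 909.3 in old muscle. Every old array was below every young array, and the young values were within 1.14-fold of each other. The log2 difference was -0.58 ± 0.21 (95% interval -1.07 to -0.08), with an unadjusted p of 0.0281 and a limma adjusted p of 0.294, so it did not pass over all genes. The other 2 probes of Lifr gave -0.43 and -0.39, and in both of these the ages overlapped.

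Stat3 encodes the transcription factor that gp130 activates by phosphorylation, which an array of transcripts does not measure. Its levels were 2161, 2581 and 2137 in young and 2728, 2751 and 6629 in old muscle. Every old array was above every young array, but old replicates 1 and 2 only narrowly, and old replicate 3 was 2.42-fold above the mean of those 2. The probe was printed 10 times, and its spots varied by a log2 SD of 0.048 to 0.081 within an array, far less than the arrays of old muscle differed. The log2 difference was 0.69 ± 0.36 (95% interval -0.17 to 1.54; limma adjusted p = 0.429), and 0.26 without old replicate 3. With a block for the slide row, which sets old replicate 1 alone against the young arrays, it was also 0.26. The other probe of Stat3 gave 0.59, and there too old replicate 3 was the highest, at 69.1 against 28.7 to 42.0 elsewhere, but the ages overlapped.

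Socs3, an inhibitor of gp130 signalling that STAT3 induces, differed most among the old arrays. It stood at 415.0, 177.7 and 312.8 in young and 379.6, 504.5 and 2785 in old muscle. Old replicate 1 was within the young range, old replicate 2 was just above it, and old replicate 3 was 6.36-fold above the mean of the other two. The SD of the old log2 values was 1.56, larger than in 99.05% of genes. The log2 difference of 1.51 ± 0.75 (95% interval -0.28 to 3.30) did not pass limma's test (adjusted p = 0.413). It was 0.62 without old replicate 3 and 0.42 with the slide row as a block.

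Socs2 is best known for limiting growth hormone signalling through STAT5. Its levels were 516.6, 360.3 and 373.7 in young and 201.5, 333.1 and 176.9 in old muscle. Every old array was below every young array, with old replicate 2 close to the lowest young array. The log2 difference was -0.85 ± 0.28 (95% interval -1.53 to -0.17), with an unadjusted p of 0.0208 and a limma adjusted p of 0.27. The other 2 probes gave -0.99 and -0.47, and in both of these too every old array was below every young one. The values of Socs2 and Socs3 thus lay on opposite sides of 0, and neither passed the test over all genes.

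**Figure D2:**
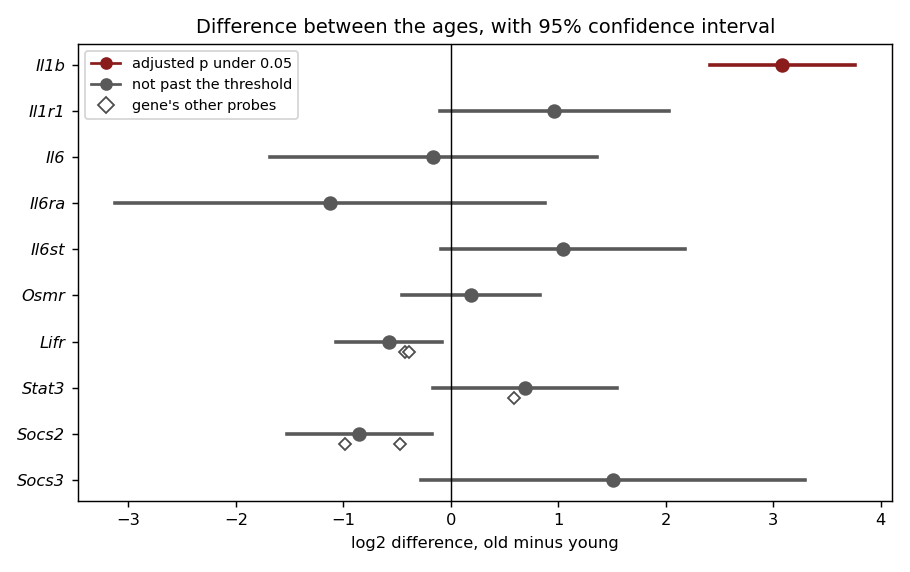
Log2 difference, old minus young, of the 10 genes (circles) with the 95% confidence interval of limma's fit; diamonds are the other probes of Lifr, Stat3 and Socs2, and the vertical line is no difference. Il1b passes the threshold at 3.09; the intervals of Lifr and Socs2 lie below 0 but their adjusted p-values are 0.294 and 0.27.

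Old replicate 3 was the highest of the 6 arrays in 7 of the 10 genes, while over all genes it was the highest in 16.7%. These were Il1b, Il1r1, Il6, Il6st, Osmr, Stat3 and Socs3. In the remaining 3, Il6ra, Lifr and Socs2, it was the lowest array, as it was in 24.1% of all genes. Against the mean of the other old arrays it was 2.19-fold higher in Il1r1 and 1.07-fold in Il1b, and Il6 was well above background on no other old array. Of the 11 genes listed as early responders to stress and handling of tissue, 7 were also highest on old replicate 3. Among them Atf3 stood at 130.4, 61.3 and 44.8 in young and 294.4, 295.8 and 1921 in old muscle, and Hspa1a at 49.0, 51.1 and 41.2 in young and 151.1, 123.6 and 697.8 in old muscle. These 2 genes, and Nr4a1 below, were picked out after their values were seen. In that list 0 genes passed the test, and its summed level was 27080 to 34060 in young and 15410 to 21850 in old muscle. The sum ran against most members, as 7 of the 11 log2 differences were positive and 4 negative. Of the 11, 3 were separate and higher and 1 (Nr4a1, -1.23 ± 0.35) separate and lower, beside 7.93% and 13.9% of all genes. The part of the listed genes and of old replicate 3 in the results was not tested.

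**Figure D3:**
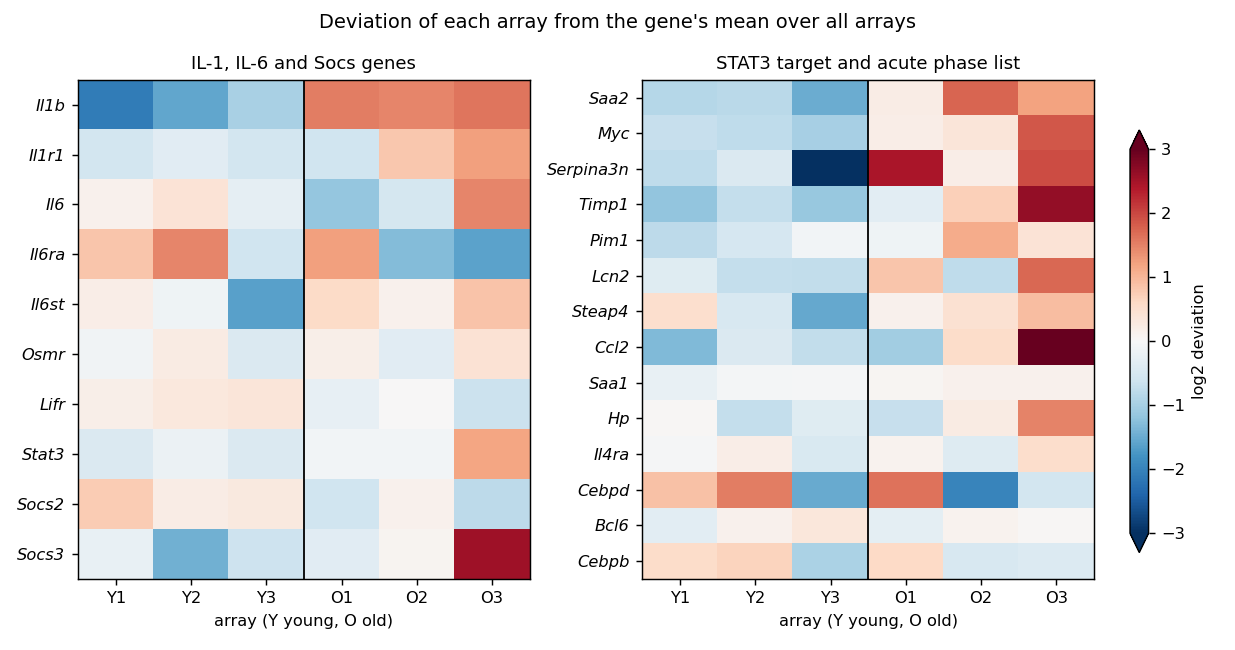
Log2 deviation of each array from the gene's mean over the 6 arrays, for the 10 genes (left) and the 14 tested genes of the STAT3 target and acute phase list (right); red is above the mean, blue below, and the line parts young (Y1 to Y3) from old (O1 to O3). Il1b is red on every old array, while Socs3, Timp1 and Ccl2 are darkest on O3, and Il6ra and Cebpd are red on Y1, Y2 and O1.

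The other genes of these pathways were read from 11 lists of 110 genes in all, of which 80 were tested and 0 passed limma's test at an adjusted p under 0.05. Of the 80, the ages did not overlap in 29, 19 higher and 10 lower, beside 7.93% and 13.9% of all genes. The median log2 difference was 0.14, against -0.06 over all genes. Genes named from each list are the 3 with the lowest p, given by their log2 differences.

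Among the interleukin-1 family ligands and secreted antagonists, 3 of 10 were tested. They were Il18bp, the soluble inhibitor of interleukin-18 (0.84 ± 0.29, ages separate), Il18 (0.64 ± 0.42) and the alarmin Il33 (0.19 ± 0.21). Il1a and the receptor antagonist Il1rn were not flagged well above background on any of the 6 arrays (below that mark, in what follows). Of the other receptors 3 of 7 were tested: Il1r2, a decoy that binds interleukin-1 without signalling (0.95 ± 0.31, ages separate), the inhibitory Sigirr (-0.47 ± 0.17, ages separate) and Il1rl1, the receptor of interleukin-33 (-0.20 ± 0.17). Il1r2 was well above background on only 2 of the 3 young arrays, so the size of its difference is uncertain. Limma's adjusted p for these 6 ran from 0.256 to 0.701.

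Downstream of the interleukin-1 receptor, 10 of 11 signalling genes were tested, with a median of 0.01. The kinase Map3k7 (-0.49 ± 0.18) and its partner Tab2 (-0.45 ± 0.17) had separate ages, and the adaptor Myd88 had 1.04 ± 0.54. Of the inflammasome genes, among them that of caspase-1, 4 of 7 were tested. Casp4 stood at 133.6, 101.7 and 118.8 in young and 259.1, 381.8 and 770.4 in old muscle, a log2 difference of 1.85 ± 0.39 (limma adjusted p = 0.142). Casp1 had 0.29 ± 0.16 and the adaptor Pycard -0.21 ± 0.42, and the sensors Nlrp3 and Nlrc4 were below that mark on all 6 arrays.

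The list of NF-κB subunits and inhibitors had 13 of 14 tested, with a median of 0.28, 11 positive values, 6 separate and higher and 0 separate and lower. Over all genes 7.93% were separate and higher and 13.9% separate and lower. Nfkb2, the subunit of the non-canonical pathway, came closest to the threshold. It stood at 110.7, 130.5 and 149.3 in young and 325.6, 512.0 and 503.0 in old muscle, a log2 difference of 1.76 ± 0.23 (limma adjusted p = 0.0542). It passed in 5 of 16 alternatives (normexp, the authors' values, the filter that asks for every array, eBayes with trend and robust settings, and without old replicate 1). Nfkbie, an inhibitor that holds NF-κB in the cytoplasm, had 1.91 ± 0.59 and the atypical inhibitor Bcl3 had 1.20 ± 0.37. Nfkbie also passed without old replicate 1. Median centring lowered the list's median to 0.13 and all genes to -0.21.

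In the interleukin-6 family, 7 of 11 other ligands were tested, with a median of -0.06. Cntf, ciliary neurotrophic factor, which Schwann cells make, stood at 259.4, 370.2 and 194.0 in young and 185.7, 130.2 and 128.6 in old muscle, a log2 difference of -0.86 ± 0.28 with separate ages (limma adjusted p = 0.261). In the list of Schwann cell markers Prx, the periaxin of myelin, fell (-1.29 ± 0.16, limma adjusted p = 0.0429) and was the only one of 5 tested to pass. Lower genes that passed were 0.0574% of all genes. Ctf1, cardiotrophin 1 (-0.14 ± 0.21), and Ebi3, a subunit of interleukin-27 (0.15 ± 0.23), overlapped. Lif and Osm, ligands of Lifr and Osmr, were below that mark on all 6 arrays. Of the other receptors, Cntfr had 0.30 ± 0.59 and Il11ra1 0.07 ± 0.18, and both overlapped.

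Of 10 Janus kinases and STATs, 9 were tested, 3 with separate higher and 3 with separate lower ages, beside 7.93% and 13.9% of all genes. Stat5a had 0.63 ± 0.19, Stat6 0.60 ± 0.23 and Stat5b -0.49 ± 0.20, with limma adjusted p from 0.233 to 0.328. Stat5a and Stat5b are close paralogs, and a probe of one may also bind the other. Among 12 tested genes of the other SOCS proteins and inhibitors, the phosphatase Ptpn6 of blood cells (1.06 ± 0.19, limma adjusted p = 0.108) was separate and higher, and the phosphatase Ptpn11 (-0.48 ± 0.15) and Socs6 (-0.54 ± 0.19) were separate and lower. In the growth hormone axis, in which Socs2 acts, the receptor Ghr stood at 2246, 1969 and 2902 in young and 1425, 1804 and 1184 in old muscle. Its log2 difference was -0.69 ± 0.23 with separate ages (limma adjusted p = 0.27). Igfbp3 had -0.92 ± 0.79 and Igf1 0.04 ± 0.55.

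The list of STAT3 target and acute phase genes had the highest median of the 11, 0.96 over 14 tested of 18. In it 11 values were positive, 5 genes separate and higher and 0 separate and lower, beside 7.93% and 13.9% of all genes. Saa2, a serum amyloid A protein, is among these 11 and these 5. It was not well above background on any of the young arrays, so it entered the test only because it was high in old muscle. Set against a bound like that of Il1b, which is not a strict limit, its level was 2.66-fold higher there (limma adjusted p = 0.126). Without old replicate 1 Saa2 passed the threshold, in a setting where 204 genes did, beside 53 as reported. Myc had 1.62 ± 0.43, with a limma adjusted p of 0.196. The serine protease inhibitor Serpina3n had levels of 14.2, 17.6 and 2.22 in young and 129.7, 27.5 and 92.5 in old muscle. One young array did not reach the mark for background, and the size of its fitted log2 difference, 3.07 ± 0.90 (limma adjusted p = 0.227), is uncertain as it takes that dim value as measured. Of the 14 genes 8 were highest on old replicate 3, as were 16.7% of all genes. The median was 0.61 without old replicate 3, 0.62 with normexp, and 0.96 with Saa2 at its bound. It was 0.57 with slide row as a block, where old replicate 1 alone is set against the young arrays.

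**Figure D4:**
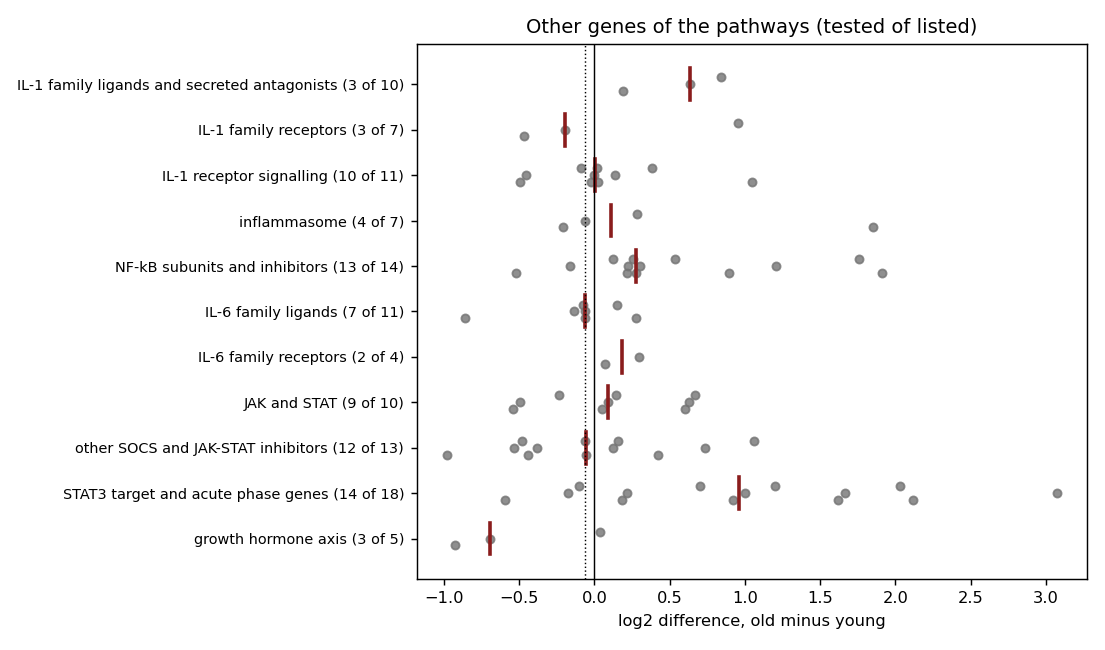
Log2 difference, old minus young, of each tested gene (grey points) in the 11 pathway lists, with the list's median as a red bar; the solid line is 0 and the dotted line is the median of all 20907 genes, -0.06. The STAT3 target and acute phase list lies farthest to the right, with a median of 0.96, and 0 of the 80 genes passed the threshold.

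Markers of cells that make or receive these cytokines were read beside the results. Of 9 tested macrophage markers 6 were separate and higher in old muscle, beside 7.93% of all genes, and 0 passed the test. The summed level of the list, 10 genes, was 2441 to 2609 in young and 2862 to 3525 in old muscle, and Cd163 was below that mark on all 6 arrays. Of 5 tested neutrophil markers 2 rose, beside 0.196% of all genes. These were S100a8 (4.80 ± 0.31) and S100a9 (4.70 ± 0.30), both with a limma adjusted p of 0.00604. Of the other 3, Camp was separate and lower, at -0.40 ± 0.15 (limma adjusted p = 0.295), and Csf3r overlapped. Retnlg was separate and higher but not well above background on any of the young arrays, so it entered the test only because it was high in old muscle. These 3 were picked out after their values were seen. The list's summed level, 9 genes, was 15640 to 16080 in young and 16890 to 19860 in old muscle. The probe of Csf3r gave 15480 to 15940 and 14390 to 18200 of these sums, with a log2 difference of 0.05 ± 0.16. Ngp was below that mark on all 6 arrays. Among lymphocyte markers 4 of 9 were tested and 0 passed, with a summed level of 298.4 to 350.3 in young and 276.6 to 334.4 in old muscle, and Cd3g, Cd8a and Ms4a1 were below that mark on all 6 arrays. The 8 fibroblast markers summed to 40870 to 45960 in young and 21090 to 36840 in old muscle, and the 6 endothelial markers to 4499 to 6025 and 2959 to 4100, with 0 passing in either list. A few bright probes set each of these sums, and members of a list differed in sign. Of the 8 fibroblast markers 6 had a negative and 2 a positive log2 difference, and of the 6 endothelial markers 3 and 3. The sums of the macrophage and neutrophil lists were higher in old muscle, as was Il1b, and those of the fibroblast and endothelial lists lower, as were Lifr and Socs2. Their part in these results was not tested.

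**Figure D5:**
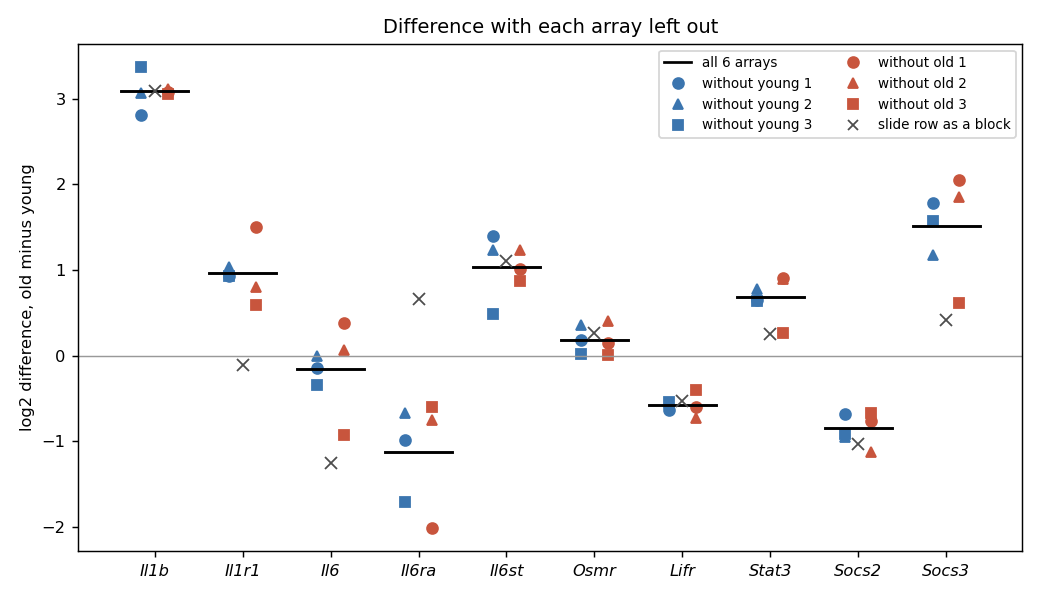
Log2 difference, old minus young, of the 10 genes with all 6 arrays (black bar), with each array left out in turn (coloured points, young blue and old red) and with the slide row as a block (cross). The cross sets old replicate 1 alone against the young arrays. The fitted values of Il1b, whose young signals are background and give only a bound, run from 2.81 to 3.37 with an array left out, Il6 lies on both sides of 0, and Il1r1 and Il6ra change sign with the slide row as a block.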

How the data were processed

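The scanner files, as deposited, give the intensity of each spot after Agilent Feature Extraction 11.0.1.1 subtracted background and removed a spatial trend, per the file headers. Version 9.5 is the one in the submitters' processing notes. The value table of the authors equalled that intensity as a rounded percentage of the array's 75th percentile, so it was linear and not centred (column medians 6, 7, 7, 9, 7 and 6 for young 1 to 3 and old 1 to 3).

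Outlier spots (161 to 212 per array) were left out, log2 signals averaged per probe, and the 75th percentile over gene probes subtracted. Of 55681 probes, 28331 were named by accession through RefSeq (GRCm38.p6). A probe counted as above background on an array where at least 50% of its spots did, and was kept where 3 of 6 arrays did so (28013 probes). The brightest represented its gene. The ages were compared with limma 3.58.1 in R 4.3.3 (lmFit and eBayes, two-sided, Benjamini-Hochberg), tested on simulated data. Tables and figures used Python 3.11.15, numpy 2.4.6, pandas 2.3.3, scipy 1.17.1 and matplotlib 3.10.9. All arrays shared 1 slide and 1 scan day.

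The 10 genes, the lists, the alternatives and the naming rule (per pathway list the 3 lowest p and any past the threshold; of markers those past it; the 3 genes most correlated with a called gene) were chosen with earlier results of these data known. Normexp (offset 50) used median signals.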

Additional observations from a re-analysis of the deposited data

How the results depend on the processing

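The number of arrays limits every result here, and dim signal further limits Il1b and Il6. Limma called 53 genes as reported, 8 with no filter on dim probes, 35 with the filter that asks for all 6 arrays, which left Il1b and Il6 untested, 5 with the replicate block, and 1 to 204 with an array left out (9, 8 and 8 without young replicates 1, 2 and 3; 204, 9 and 1 without old replicates 1, 2 and 3). Centring on the median called 26 higher and 16 lower, quantile normalization 30 and 12, normexp 38 and 23, and a block for slide row 22 and 19, beside 41 and 12 as reported. Of the 10 genes 1 was called as reported, 0 with normexp, no filter, the filter on all 6 arrays, the replicate block or the slide row as a block, and 0 to 2 with an array left out (2 without old replicate 1). For Il1b, normexp gave a log2 difference of 0.598 (adjusted p = 0.168), and no filter, the replicate block and the slide row as a block gave 3.087 (0.0793, 0.0696 and 0.0864), with 2.813 to 3.373 when an array was left out; fewer arrays or more genes tested are part of these settings, and the cause was otherwise not tested. The slide row as a block sets old replicate 1 alone against the young arrays, as the other old arrays shared no row with them. All its age differences thus rest on that old array. This block reversed Il1r1 (-0.115) and Il6ra (0.662). Il6 turned to 0.383 and 0.064 without old replicates 1 and 2, with a range of -0.932 to 0.383 over the arrays left out. Il1r1 ranged from 0.588 to 1.505, past the threshold without old replicate 1. Il1b kept its direction in all 15 alternatives and passed in 7 of them. The remaining 6 genes (Il6st, Osmr, Lifr, Stat3, Socs2 and Socs3) kept their direction in all 16 and passed in 0. Same-numbered young and old arrays did not deviate together (correlations -0.063, -0.271 and 0.028), so the numbers were not taken as pairs; the replicate block changed no other call among the 10.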
